A study of Mus musculus with 2 samples.

Results

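The metallothionein genes Mt1, Mt2 and Mt3 were followed across the cell classes of a mouse brain single-cell RNA data set. The members were the 3 genes of these symbols among the 31053 genes listed, and all 3 were detected in both libraries. A further family member, Mt4, gave 0 control UMIs and 1 MNPQ UMI and was left aside. UMIs (unique molecular identifiers) count captured RNA molecules. The study made 2 droplet libraries (10x Genomics Chromium) from C57BL/6 mice, labelled as substantia nigra pars compacta, and set a mixture of the pesticides maneb and paraquat (MNPQ) against a control. From 10 weeks of age, MNPQ mice were injected intraperitoneally with paraquat at 10 mg/kg and, an hour afterwards, maneb at 30 mg/kg, on 2 days of each week for 3 weeks. Control mice received saline per the treatment protocol, while the sample label calls them untreated. The protocol describes 3 males chosen per group, while the label gives the sex as pooled. Each group had 1 library, so the treatment and the library cannot be told apart, no test was possible, and intervals given here are 95% intervals of counting error only.

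Metallothioneins are small cysteine-rich proteins that bind zinc and copper and react with oxidants. Mt1 and Mt2 are made in most organs, and the metal-sensing factor MTF1, glucocorticoids and inflammatory signals are known to raise their transcription in brain glia. Mt3 is the brain form, known as growth inhibitory factor, and responds little to metals. Astrocytes are their best-known source in the brain. Paraquat is a redox-cycling herbicide, and maneb a fungicide that carries manganese.

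The genes lie side by side on the plus strand of mouse chromosome 8 (mm10). Mt3 spans chr8:94152607-94154146, Mt2 chr8:94172664-94173568 and Mt1 chr8:94179082-94180327, with 18517 bases between Mt3 and Mt2 and 5513 between Mt2 and Mt1. All are protein-coding, and the first listed transcript of each has 3 exons. The 250 bases before each RefSeq transcription start (GRCm38.p6) are printed because the promoters of Mt1 and Mt2 are the textbook case of metal-responsive control and that of Mt3 is not. Capitals mark each match on either strand to the core of the metal response element, searched as TGCGCNC or TGCACNC. The last bases of the Mt1 stretch lie within exon 1 of the GENCODE transcript, whose start is upstream of the RefSeq one. For Mt2 the GENCODE gene start (94172664) is downstream of the RefSeq one. The Mt2 stretch also overlaps an exon of the antisense gene Gm45774. Other starts were not used, so a printed stretch need not hold the whole promoter.
Mt1, chr8:94178839-94179088: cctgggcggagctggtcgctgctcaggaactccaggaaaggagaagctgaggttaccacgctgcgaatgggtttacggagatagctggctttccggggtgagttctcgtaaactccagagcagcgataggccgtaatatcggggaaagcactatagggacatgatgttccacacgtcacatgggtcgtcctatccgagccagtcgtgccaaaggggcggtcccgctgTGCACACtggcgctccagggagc
Mt2, chr8:94172368-94172617: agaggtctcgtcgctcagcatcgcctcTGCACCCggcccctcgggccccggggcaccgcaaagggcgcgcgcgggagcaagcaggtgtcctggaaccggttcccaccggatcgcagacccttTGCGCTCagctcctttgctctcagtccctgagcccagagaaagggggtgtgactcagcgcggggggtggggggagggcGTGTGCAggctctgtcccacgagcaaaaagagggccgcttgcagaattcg
Mt3, chr8:94152357-94152606: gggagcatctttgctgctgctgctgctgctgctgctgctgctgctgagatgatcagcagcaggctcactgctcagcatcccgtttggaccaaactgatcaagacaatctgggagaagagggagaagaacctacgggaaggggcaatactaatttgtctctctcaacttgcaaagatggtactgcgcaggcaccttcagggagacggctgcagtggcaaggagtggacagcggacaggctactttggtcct

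Over the window of 300 bases that also takes in 50 bases after the start, Mt1 had 3 matches, Mt2 had 4 and Mt3 had 1. Positions count from the RefSeq start, and bases outside the window were not searched. GENCODE lists 3 transcripts for Mt1, 2 for Mt2 and 3 for Mt3. Seen from a start further downstream, a match given as after the start can lie before it. For Mt1, 1 match lay 23 bases before the start and the other 2 after it, within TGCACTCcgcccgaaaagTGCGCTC (chr8:94179091-94179115). In Mt2, 3 matches lay before the start, at 223, 128 and 50 bases, and 1 after it. That last match (chr8:94172622-94172628) still lies before the GENCODE start of Mt2. The match of Mt3 lay after the start, and its printed stretch holds none. Of 32851 RefSeq promoter windows of this length, 25.7% had at least 1 match, 7.11% at least 2 and 1.97% at least 3. The core of the antioxidant response element, searched on both strands as TGACNNNGC, occurred once in the Mt2 window, 79 bases before the start, and in 12.4% of all windows. A match describes letters and does not show that a factor was bound.

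The reads could separate the 3 transcripts. Their longest shared run was 27 bases (Mt1 and Mt3), against a read of 57 bases, and no other annotated gene shared a run of 57 bases with any of them. Mt2 overlaps Gm45774, an antisense gene on the minus strand, which had 0 and 1 UMI in the control and MNPQ libraries. Whether counting used strand is not given in the sources used here.

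After filtering, 882 of 1105 control and 854 of 965 MNPQ barcodes were kept, with 2002640 and 1958634 UMIs and a median of 974 and 946 UMIs per cell. The libraries shared 2 barcodes, 1 of them among kept cells. Clustering gave 15 clusters, of which 13 met the criteria of a marker list and are written with the ending -like, and 2 stayed unnamed. The tissue label was checked against dopaminergic neuron markers: in kept cells, Th and Slc6a3 each gave 1 control UMI and no MNPQ UMI, Slc18a2 gave 1 in each, and Pitx3 and En1 gave none at all. The other 3 of the 8 markers, which other cell types also express, were detected: Aldh1a1 with 74 and 108 UMIs, Ddc with 42 and 62, and Nr4a2 with 21 in each. The protocol gives the slice's position relative to bregma without its sign, and calls the content of the slice presumed, so the dissected region may be another than the labelled one.

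Mt1 was most abundant in astrocyte-like cells. Its level there was 8323 CPM (the gene's UMIs per 1000000 UMIs of the class; interval 8077 to 8573) in 319 control cells and 12316 CPM (12014 to 12625) in 297 MNPQ cells. Leaving out mitochondrially encoded genes, it ranked 5 (control) and 4 (MNPQ) among the genes of these cells. Ependymal-like cells, the ciliated lining of the ventricles, came next with 6988 CPM in 28 control cells and 8222 CPM in 6 MNPQ cells. All other classes were far lower. The unnamed clusters came next in both libraries, with 2002 CPM in 84 control cells and 1949 CPM in 83 MNPQ cells. Pericyte-like cells were at 567 and 1777 CPM, the latter mostly from 1 cell. Endothelial-like cells held 966 and 1266 CPM, oligodendrocyte-like cells 928 and 1028 CPM, and neuron-like cells 920.1 and 1224 CPM. In the control library the intervals of neighbours among these 3 classes overlapped, so their order is not resolved, and in the MNPQ library the same holds. Microglia-like cells had 575 and 516 CPM, and smooth muscle-like cells had the lowest level in both libraries, 174 and 125 CPM.

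Mt2 followed the same first places at lower levels. Astrocyte-like cells held 2241 CPM (2115 to 2373) for control and 3591 CPM (3428 to 3759) for MNPQ. Ependymal-like cells held 1712 and 2567 CPM. Among named classes holding 30 or more cells of each library, endothelial-like cells were next in both, at 389 and 361 CPM, and the microglia-like class was last, at 48.9 and 50.4 CPM. In the MNPQ library the interval of endothelial-like cells overlapped that of neuron-like cells, which held 138 CPM (control) and 343 CPM (MNPQ).

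Mt3 was the member with another order. Ependymal-like cells exceeded astrocyte-like cells in both libraries, with 8079 CPM (7717 to 8453) against 5066 CPM (4875 to 5263) in the control and 8868 CPM (8045 to 9753) against 6666 CPM (6444 to 6894) in the MNPQ library. Again without mitochondrially encoded genes, Mt3 ranked 3 in ependymal-like cells of both libraries, and 12 and 8 in astrocyte-like cells. Neuron-like cells had 697 and 882 CPM. Endothelial-like cells, which for Mt2 followed next among the larger named classes, were near the bottom for Mt3, at 92.1 and 103 CPM. Scaled to the length of the first transcript, astrocyte-like cells of the control library held 15159.7 CPM per kilobase for Mt1, 9452 for Mt3 and 4386 for Mt2, and those of the MNPQ library 22434, 12437 and 7027, so the members kept this order. In ependymal-like cells Mt3 stood first, with 15073 CPM per kilobase against 12728 for Mt1 in the control library, and 16546 against 14975 in the MNPQ library.

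**Figure D1:**
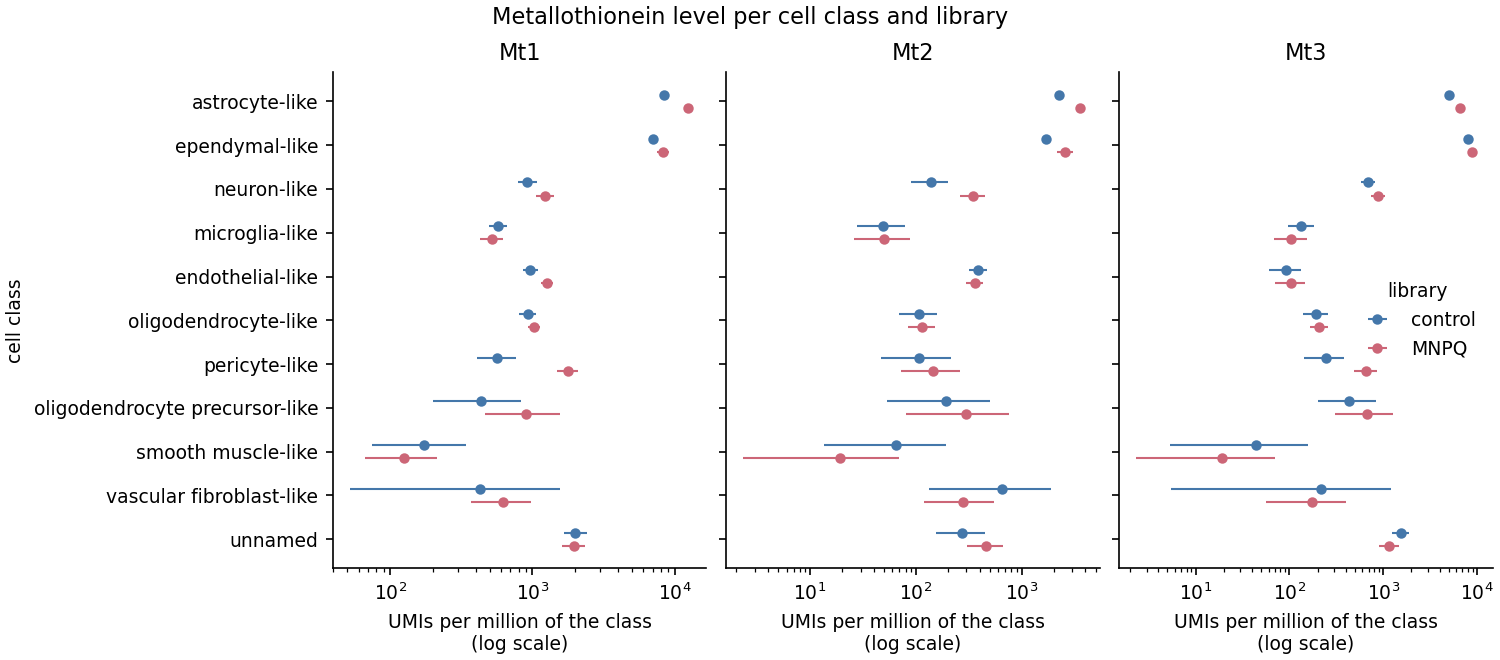
Level of Mt1, Mt2 and Mt3 in each cell class (rows), in CPM (UMIs of the gene over all UMIs of the class) on a log axis, for the control (blue) and MNPQ (red) libraries; bars are exact Poisson 95% intervals. Astrocyte-like and ependymal-like cells stand to the right of all other classes for each gene, with Mt1 at 8323 and 12316 CPM in astrocyte-like cells.

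The share of cells with a UMI depends on depth, so it was also taken with each cell thinned to 500 UMIs. Unthinned, 95.9% of the astrocyte-like cells had a Mt1 UMI in the control and 99.3% under MNPQ (median depth 821 and 773 UMIs). Thinned, the shares were 88.7% and 97.0% for Mt1, 62.4% and 79.1% for Mt2, and 78.7% and 92.6% for Mt3, so each gene was seen in a larger share of MNPQ astrocyte-like cells at equal depth. The smooth muscle-like class, at the lowest Mt1 level, served as the measure of background. Unthinned, 6 of its 10 control cells and 10 of its 17 MNPQ cells had a Mt1 UMI at a median depth of 4688 and 6127 UMIs. Thinned, 2 of 10 and 1 of 17 (5.88%) did, with exact upper bounds of 55.6% and 28.7%. For Mt3 the thinned shares there were 0 of 10 and 0 of 17 cells, which allow shares of up to 30.0% and 17.6%. For Mt2 they were 10.0%, with an exact upper bound of 44.5%, and 0 of 17 cells, with the same limit of 17.6%. With so few cells these limits are wide, and shares below them cannot be told from background at this depth. Among the compared classes that holds in both libraries for Mt2 in microglia-like (1.46% and 5.61% thinned), oligodendrocyte-like (11.1% and 6.25%) and pericyte-like cells (6.67% and 3.23%). For Mt3 it holds in microglia-like (10.2% and 4.67%), endothelial-like (6.76% and 7.35%), oligodendrocyte-like (13% and 8.75%) and pericyte-like cells (13.3% and 6.45%).

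In astrocyte-like cells all 3 members were higher in the MNPQ library. The log2 ratio of MNPQ over control was 0.57 (0.51 to 0.62) for Mt1, which is 1.48-fold. For Mt2 it was 0.68 (0.57 to 0.79), or 1.60-fold, and for Mt3 0.40 (0.32 to 0.47), or 1.32-fold. Each interval lay above 0 by counting error. Of the 3 members, Mt2 alone passed a 1.5-fold difference, a size reached upward by 14.6% of the 2520 genes with 60 or more UMIs in these cells. The median of those genes was 0.16, and 260 of them had a higher ratio than Mt2, 395 than Mt1 and 715 than Mt3. Scaled by the median of ratios over these genes, which lowers each value by this general shift, the ratios were 0.40 for Mt1, 0.52 for Mt2 and 0.23 for Mt3.

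Among control astrocyte-like cells the clusters differed in metallothionein level, and they took different shares of each library. The most numerous cluster, shallow and led by Aldoc, Tspan7 and Cxcl14, held 146 control and 222 MNPQ cells. Mt1 stood at 12093 CPM in its control cells and 13154 CPM in its MNPQ cells, a log2 ratio of 0.12 (0.03 to 0.22), Mt2 at 3201 and 3735 CPM (0.22, 0.04 to 0.41), and Mt3 at 7355 and 7395 CPM (0.01, -0.12 to 0.13). A deeper cluster led by Gm3764, F3 and Agt held 107 control and 68 MNPQ cells. There Mt1 was at 7236 and 11841 CPM (0.71, 0.64 to 0.78), Mt2 at 1926 and 3518 CPM (0.87, 0.73 to 1.01) and Mt3 at 4514 and 6297 CPM (0.48, 0.39 to 0.58). The control cells of the deep cluster thus lay below those of the most numerous cluster. The MNPQ cells of the deep cluster approached the level that the most numerous cluster had in both libraries. A further shallow cluster, led by Itih3, Agt and Igsf1, held 66 control cells and only 7 MNPQ cells, with Mt1 at 6992 and 14116 CPM. Its Mt3 was at 3475 CPM in control cells, the lowest of the 3 clusters, and at 5458 CPM in MNPQ cells.

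Split by depth alone, the difference was present on both sides of 1000 UMIs per cell. Below it, where the median depth was 638 and 634 UMIs, the log2 ratio was 0.31 (0.20 to 0.41) for Mt1, 0.34 (0.14 to 0.55) for Mt2 and 0.25 (0.10 to 0.39) for Mt3. From 1000 UMIs upward, at a median depth of 2111 and 3370 UMIs, it was 0.66 (0.59 to 0.72), 0.80 (0.68 to 0.93) and 0.45 (0.36 to 0.53). The deeper cells therefore had the larger ratio for each member, although depth itself differed between the libraries on that side. The shallow side mixed clusters that took unequal shares of the libraries. The most numerous shallow cluster, which includes some cells from 1000 UMIs, gave 0.12 for Mt1, 0.22 for Mt2 and 0.01 for Mt3. The part of cluster shares in the shallow ratios was not tested.

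The deep cells were split once more by Agt, the angiotensinogen gene, which marks astrocytes of some brain regions. A UMI of it was found in 98 of 132 deep control cells (74.2%, interval 65.9 to 81.5) and 45 of 105 deep MNPQ cells (42.9%, 33.2 to 52.9), so the libraries differed in the share of deep cells with Agt. Among deep cells with Agt, Mt1 was at 6783 CPM for control and 11647 CPM for MNPQ (0.78, 0.70 to 0.86). Mt2 was at 1934 and 3376 CPM (0.80, 0.65 to 0.96) and Mt3 at 4303 and 6036 CPM (0.49, 0.38 to 0.60). Without Agt the control level was already high for Mt1 and Mt3. Mt1 was at 12094 and 13341 CPM there (0.14, 0.03 to 0.25) and Mt3 at 7066 and 7403 CPM (0.07, -0.08 to 0.21), while Mt2 was at 2564 and 3892 CPM (0.60, 0.37 to 0.84). A single control cell held 20.9% of the Mt1, 23.9% of the Mt2 and 20.5% of the Mt3 UMIs of the 34 control cells without Agt. Values without that cell were not computed. For Mt1 and Mt3 the intervals of cells with and without Agt did not overlap, and for Mt2 they did. With both kinds weighted equally the ratios of deep cells were 0.40 for Mt1, 0.69 for Mt2 and 0.24 for Mt3, below the 0.66, 0.80 and 0.45 of the plain sum. Median depth differed as well, being 2666 and 4156 UMIs in cells with Agt and 1415 and 1664 in those without, and its part in these ratios was not tested.

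Single cells were compared as well. In deep cells with Agt, the median control cell had 45.0 Mt1 UMIs per 10000 (quartiles 19.7 and 79.0) and the median MNPQ cell 105 (82.7 and 133). The lower quartile of the MNPQ cells exceeded the upper quartile of the control cells. Of the 98 control cells, 78.6% lay under that MNPQ lower quartile for Mt1, 55.1% for Mt2 and 63.3% for Mt3. In shallow cells the medians were closer, 88.0 and 115 per 10000 for Mt1, and 39.0% of control cells lay under the MNPQ lower quartile. In deep cells without Agt, 47.1% of 34 control cells lay under it for Mt1 and Mt3 and 58.8% for Mt2, which is above the Mt2 share of cells with Agt although the ratio of sums was lower. Cells of 1 library are not replicates, so these spreads describe the cells and give no error for the groups.

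**Figure D2:**
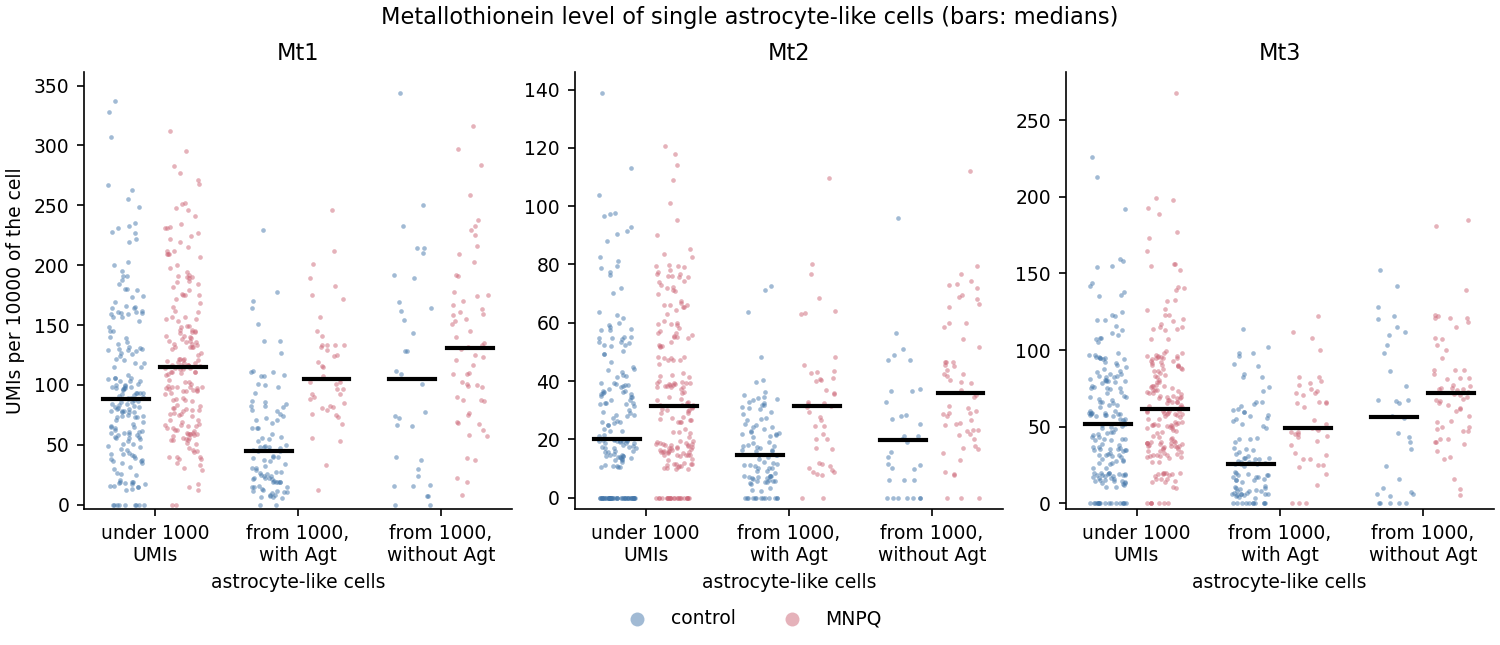
Each point is 1 astrocyte-like cell, with its Mt1, Mt2 or Mt3 UMIs per 10000 UMIs of the cell, for shallow cells (under 1000 UMIs) and deep cells with and without an Agt UMI; blue is control, red is MNPQ, and black bars are medians. The Mt1 medians of deep cells with Agt are 45.0 and 105, the widest gap among the Mt1 groups.

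Over all kept cells, Mt1 was at 3505 CPM for control and 4137 CPM for MNPQ, a log2 ratio of 0.24 (0.19 to 0.29), and Mt2 at 892 and 1140.1 CPM (0.35, 0.26 to 0.44). Mt3 had the opposite sign, 2444 CPM against 2166 CPM, and fell by 0.17 on the log2 scale (-0.23 to -0.11), although it was higher in the MNPQ library within astrocyte-like cells. None of the 3 passed 1.5-fold, which 19.2% of 8384 genes did. The classes contributed unequally. Ependymal-like cells, 28 for control and 6 for MNPQ, held 38.3% of all control Mt3 UMIs but 10.0% of those of the MNPQ library, and astrocyte-like cells held 54.2% and 80.1%. For Mt1 the ependymal-like share was 23.1% and 4.86%, and for Mt2 22.2% and 5.51%. Summed ependymal markers were at 2410.3 CPM for control and 646 CPM for MNPQ, with 9 of 9 markers detected in each. Without the ependymal-like cells, Mt3 was at 1706 and 1998 CPM, a ratio of 0.23 (0.16 to 0.30), and Mt1 and Mt2 had ratios of 0.40 and 0.49. The sign of the Mt3 ratio over all cells thus turned with the 34 cells of a single class, and it also turned with each cell weighted equally (0.19).

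**Figure D3:**
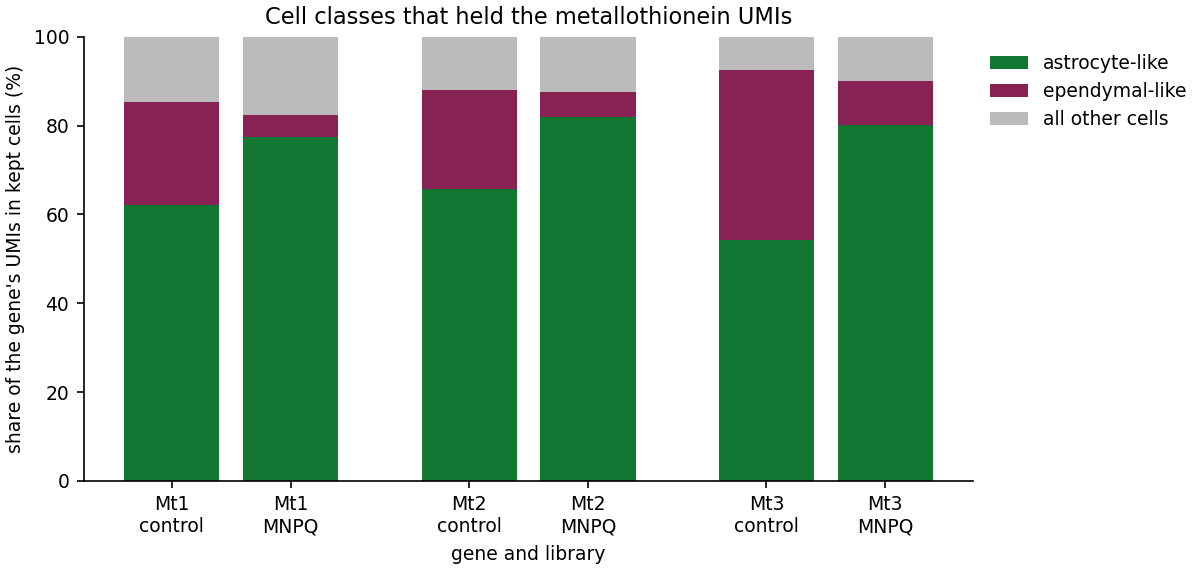
Share of each gene's UMIs in kept cells that lay in astrocyte-like (green), ependymal-like (purple) and all other cells (grey), for each library. For Mt3 the ependymal-like share is 38.3% for control and 10.0% for MNPQ.

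Within ependymal-like cells themselves, with 6 cells in the MNPQ library, the ratio was 0.23 (0.07 to 0.39) for Mt1, 0.58 (0.28 to 0.88) for Mt2 and 0.13 (-0.02 to 0.29) for Mt3. A single one of those 6 cells held 36.5% of the Mt1 UMIs, so these values rest on very few cells.

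In neuron-like cells Mt2 had the largest ratio of the 3 members. It had 26 UMIs, or 138 CPM, in 124 control cells and 56 UMIs, or 343 CPM, in 148 MNPQ cells, a log2 ratio of 1.31 (0.61 to 2.04). It was the only member there at least 1.5-fold higher, where 13.7% of 1013 genes were, and 12 of those genes had a higher ratio. Mt1 was at 920.1 and 1224 CPM (0.41, 0.11 to 0.71) and Mt3 at 697 and 882 CPM (0.34, -0.01 to 0.69), which turned to -0.12 with cells thinned to 500 UMIs. Without the cell with most metallothionein UMIs in each library, the ratio was 0.60 (0.28 to 0.92) for Mt1 and 0.49 (0.12 to 0.87) for Mt3. The control cell so left out held 28 Mt1 and 20 Mt3 UMIs, with astrocyte markers at 12157 CPM. Thinned to 500 UMIs, 11.3% of the control neurons and 19.6% of the MNPQ ones had a Mt2 UMI, the first close to the 10.0% of control smooth muscle-like cells. Astrocyte markers were present too, all 12 summing to 1979 and 1996 CPM, or 8.33% and 8.71% of their level in astrocyte-like cells. Mt1 in neuron-like cells stood at 11.1% and 9.94% of its astrocyte-like level, Mt2 at 6.17% and 9.55%, and Mt3 at 13.8% and 13.2%. The part of astrocyte RNA in these values was not tested.

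Neurons with and without a UMI of Slc17a7, the vesicular glutamate transporter of cortical-type glutamatergic neurons, differed in Mt3. With Slc17a7 there were 24 control cells (median depth 1482 UMIs) and 65 MNPQ cells (755 UMIs). Their Mt3 was at 329 CPM from 18 UMIs and at 1121 CPM from 67 UMIs, a ratio of 1.77 (1.00 to 2.61). In neurons without Slc17a7, Mt3 was at 848 and 743 CPM (-0.19, -0.63 to 0.24), and a single cell held 17.7% of the control Mt3 UMIs there. Mt2 was higher in the MNPQ library on both sides, with a ratio of 1.06 (-0.30 to 2.59) with Slc17a7 and 1.44 (0.62 to 2.31) without, although the first interval holds 0. The control group with Slc17a7 is small and deeper, and the part of depth was not tested.

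Microglia-like cells showed no member whose interval left 0. The ratio was -0.15 (-0.49 to 0.18) for Mt1, 0.04 (-1.17 to 1.21) for Mt2 and -0.36 (-1.13 to 0.38) for Mt3, and neither of the 2 members with at least 60 UMIs passed 1.5-fold, against 11.1% of 1299 genes. For Mt1 the upper bound lay below 0.57, the log2 ratio of all astrocyte-like cells. It lay above 0.12, the ratio of their most numerous cluster. Oligodendrocyte-like cells gave 0.15 (-0.09 to 0.39) for Mt1, 0.12 (-0.61 to 0.88) for Mt2 and 0.11 (-0.43 to 0.66) for Mt3, with 0 of 3 at least 1.5-fold higher against 7.60% of 1750 genes. Here too the upper bound for Mt1 lay below 0.57 and above 0.12. The differences between classes were not tested, since each library is 1 sample.

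In endothelial-like cells Mt1 was higher in the MNPQ library, while the direction of Mt2 depended on how cells were weighted. Mt1 had 283 UMIs (966 CPM) in 74 control cells and 393 UMIs (1266 CPM) in 68 MNPQ cells, a ratio of 0.39 (0.17 to 0.62). Mt2 had 114 and 112 UMIs, a ratio of -0.11 (-0.50 to 0.28). With each cell weighted equally the Mt2 ratio was 0.57, and with cells thinned to 500 and 1000 UMIs it was 0.58 and 0.30. A Mt2 UMI was found in 56.8% of control and 72.1% of MNPQ cells, and in 20.3% and 25.0% when thinned to 500 UMIs. Mt3 had 27 and 32 UMIs (0.16, -0.62 to 0.96), and 37.5% of the MNPQ ones came from a single cell called a doublet. Neither Mt1 nor Mt2, the 2 members with at least 60 UMIs, passed 1.5-fold, which 13.4% of 1804 genes did. Summed astrocyte markers were at 355 CPM in control and 679.6 CPM in MNPQ endothelial-like cells, or 1.49% and 2.96% of the astrocyte-like level. Mt1, at 11.6% and 10.3% of its astrocyte-like level, and Mt2, at 17.4% and 10.0%, stood well above those marker shares, whereas Mt3, at 1.82% and 1.55%, did not. Mt1 also exceeded the marker share in other classes, as in microglia-like cells, at 6.90% and 4.19% against 1.94% and 2.05%. In smooth muscle-like cells, the measure of background, Mt1 was at 2.09% and 1.02% and Mt2 at 2.91% and 0.536%. Their marker shares were 0.458% and 0.587%, and the source of these UMIs was not tested.

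Pericyte-like cells had the largest Mt1 ratio of any compared class, and it rested on 1 cell. Mt1 had 42 UMIs (567 CPM) in 30 control cells and 135 UMIs (1777 CPM) in 31 MNPQ cells, a ratio of 1.65 (1.14 to 2.18), and Mt3 had 18 and 50 UMIs (1.44, 0.63 to 2.30). Both were at least 1.5-fold higher, as were 10.8% of 360 genes. A single MNPQ cell held 99 of the Mt1 and 42 of the Mt3 UMIs, which are 73.3% and 84.0% of the class. That cell had astrocyte markers at 14966 CPM and was not called a doublet. Without the cell with most metallothionein UMIs in each library the ratio was 0.17 (-0.55 to 0.89) for Mt1 and -0.66 (-2.13 to 0.72) for Mt3. Mt2, with 8 and 11 UMIs, gave 0.42 (-1.03 to 1.94), and -0.28 without those cells.

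**Figure D4:**
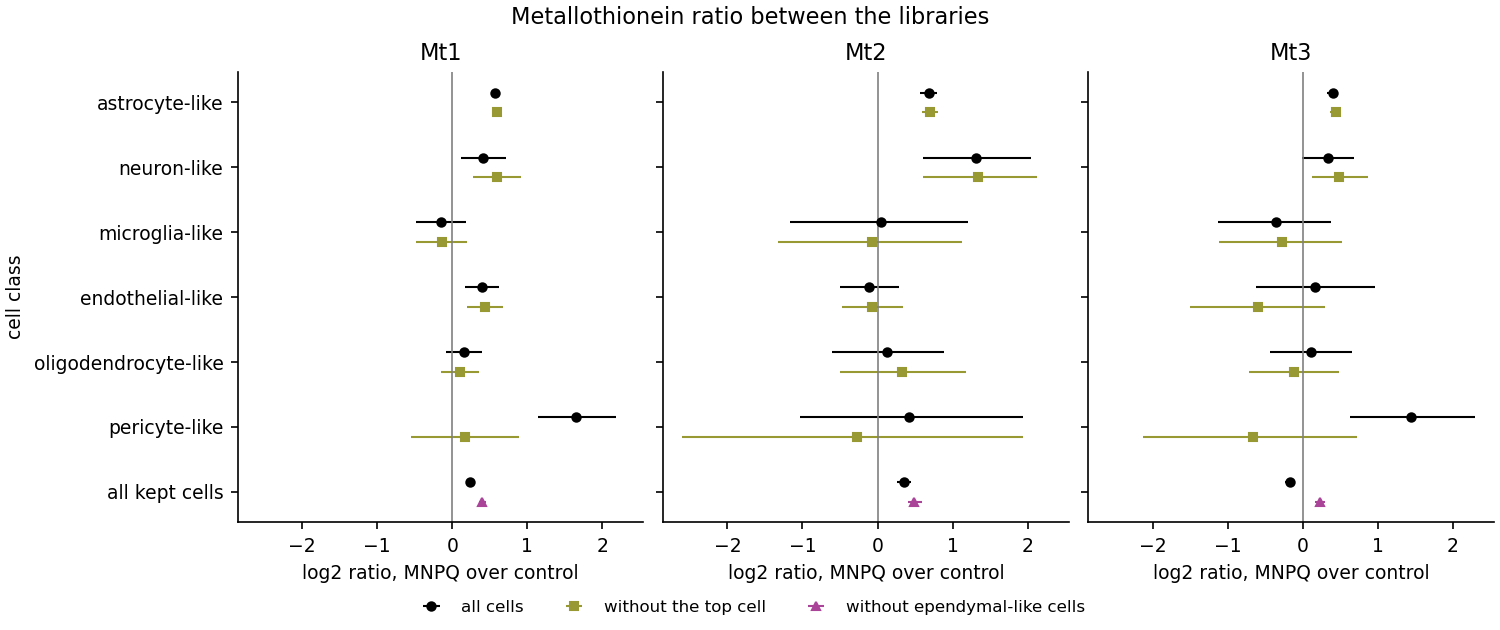
Log2 ratio of MNPQ over control for each gene and class, with exact 95% intervals of counting error, over all cells (black circles), without the cell holding most metallothionein UMIs in each class and library (olive squares), and over all kept cells without the ependymal-like class (purple triangles). Astrocyte-like cells lie above 0 for all 3 genes under both settings, the Mt1 and Mt3 ratios of pericyte-like cells drop to 0.17 and -0.66, and the Mt3 ratio over all kept cells turns from -0.17 to 0.23.

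The make-up of the metallothionein UMIs differed between classes more than between libraries. In astrocyte-like cells there were 1.64 Mt1 UMIs per Mt3 UMI (1.57 to 1.72) for control and 1.85 (1.77 to 1.93) for MNPQ. Ependymal-like cells had 0.865 (0.809 to 0.925) and 0.927 (0.806 to 1.07), so Mt3 was the larger part. In neuron-like cells the ratio was 1.32 (1.05 to 1.67) and 1.39 (1.12 to 1.73). Microglia-like cells had 4.27 and 4.92, oligodendrocyte-like cells 4.84 and 4.99, and endothelial-like cells 10.5 (7.05 to 16.2) and 12.3 (8.56 to 18.2). The intervals of these last 3 classes did not overlap that of astrocyte-like cells in either library.

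Mt2 made up 26.9% (22.7 to 31.4) of metallothionein UMIs in control endothelial-like cells and 20.9% (17.5 to 24.5) in MNPQ ones, against 14.3% and 15.9% in astrocyte-like cells. In microglia-like cells it made up 6.45% and 7.50%. Neuron-like cells went from 7.88% (5.21 to 11.3) in the control to 14.0% (10.8 to 17.8) in the MNPQ library, with slightly overlapping intervals.

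**Figure D5:**
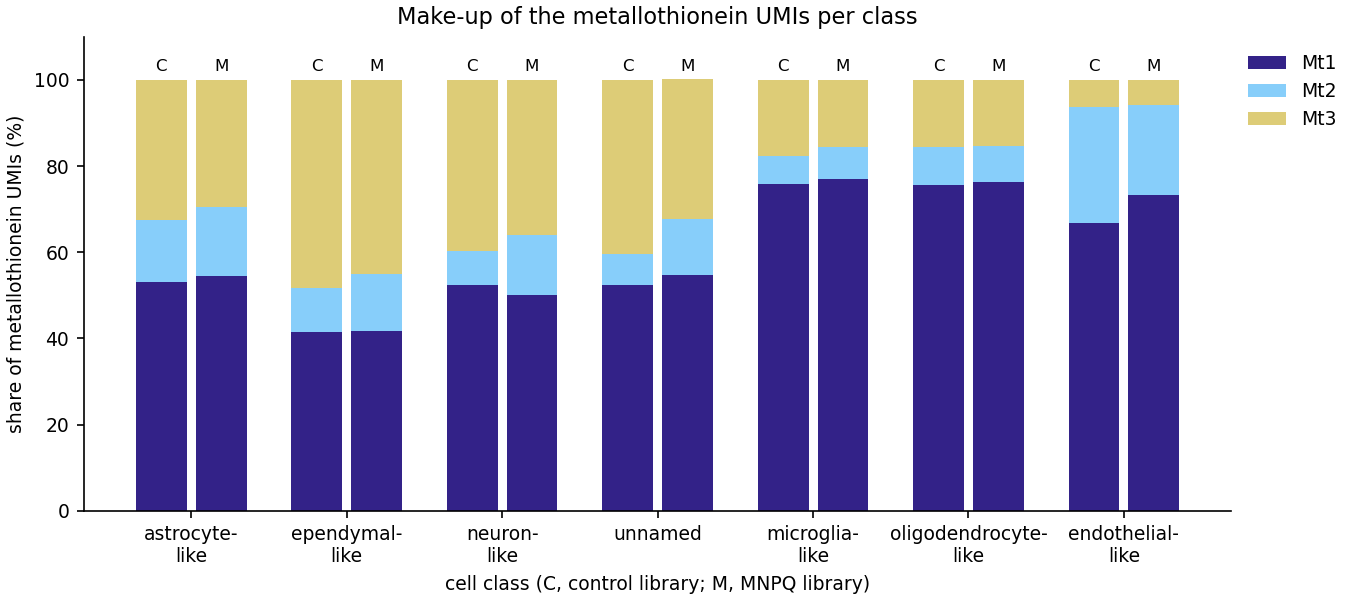
Share of Mt1, Mt2 and Mt3 among the metallothionein UMIs of each class, in percent, for the control (C) and MNPQ (M) libraries. Mt3 makes up 48.1% and 45.1% in ependymal-like cells but 6.37% and 5.96% in endothelial-like cells.

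Genes with the most similar pattern were sought over the 12 sums of the 6 compared classes in both libraries, among 3383 genes, by Pearson correlation of log2(CPM + 10). These points share libraries and class structure, so the values are a description. Of the genes named next, Gja1, Gjb6, Aldoc and Slc4a4 are astrocyte markers that were used to name the classes. Mt1 was most like Gja1 (r = 0.963), Gpr37l1 (0.960), Aldh1l1 (0.959), Gjb6 (0.957) and Cxcl14 (0.953). Gja1 and Gjb6 encode the astrocyte connexins, and Aldh1l1 a folate enzyme used as an astrocyte marker. Mt2 was most like Fam107a (0.947), Fam181b (0.943), Sox9 (0.936), Mt1 (0.933) and Tril (0.931), and Mt3 like Fjx1 (0.993), Aldoc (0.988), Scg3 (0.974), Chchd10 (0.974) and Slc4a4 (0.973). Mt3 stood at place 55 for Mt1 and at place 109 for Mt2, so by this measure many genes were nearer to either than the third member was.

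Across the 616 astrocyte-like cells the order was different. Among 468 genes, with r averaged over the libraries, Mt1 was most like Mt3 (0.451), Aldoc (0.432), Mt2 (0.383), Dbi (0.345) and Ckb (0.342). Aldoc encodes the brain form of the glycolytic enzyme aldolase, Ckb the brain creatine kinase. For Mt2 the nearest genes were Mt1 (0.383), Aldoc (0.232), Pantr1 (0.230), Gstm1 (0.214) and Atp5l (0.209), and for Mt3 they were Mt1 (0.451), Cst3 (0.419), Aldoc (0.356), Cox4i1 (0.317) and Clu (0.313). Thinned to 1000 UMIs, deep cells gave r for Mt1 with Mt2 of 0.561 for control and 0.418 for MNPQ, and for Mt1 with Mt3 of 0.691 and 0.572. Mt2 with Mt3 gave 0.462 and 0.289. The lowest correlations, named after their values were seen, were for Mt1 those with Gm3764 (-0.314), Macf1 (-0.291), Son (-0.289) and the nuclear RNA Malat1 (-0.289).

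The other genes of the pathways that act on metallothioneins were taken from 5 lists, with genes of at least 20 UMIs in astrocyte-like cells counted. Those named are the highest, lowest and most abundant of each list with at least 60 UMIs. Over all 5803 such genes, 3211 were higher and 2592 lower in the MNPQ library, with a median log2 ratio of 0.06. Of the list of metal sensing and zinc transport, 11 of 21 genes could be counted, 7 higher and 4 lower, with a median of 0.04. Slc30a10, a manganese exporter, was at 49.6 and 86.3 CPM (0.80, 0.07 to 1.56), and Slc39a12, a zinc importer and the list's most abundant gene, at 412 and 280.5 CPM (-0.56, -0.87 to -0.24). Mtf1, the sensor itself, was below the limit in these cells and had 59 and 68 UMIs over all kept cells (0.24, -0.29 to 0.77). All 9 counted genes of copper handling, of 15 listed, were higher, with a median of 0.24, but each of their intervals held 0. Among genes with at least 60 UMIs, the 6 of this list had a median of 0.14, against 0.16 over all such genes. The copper chaperone Atox1 was at 153 and 202 CPM (0.40, -0.03 to 0.84). The most abundant was Prnp, the prion protein gene, with 1649 and 1765 CPM (0.10, -0.04 to 0.23).

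Glucocorticoid-responsive genes were counted for 9 of 20, with 6 higher, 3 lower and a median of 0.18. At 60 or more UMIs the 7 genes left also had a median of 0.18, near the 0.16 over all such genes. Tsc22d3 was at 191 and 265 CPM (0.47, 0.09 to 0.86), Glul, the glutamine synthetase, at 3352 and 4299 CPM (0.36, 0.27 to 0.45), and the lipid transporter gene Mfsd2a at 122 and 84.3 CPM (-0.53, -1.13 to 0.05). The list of NRF2 targets and glutathione genes had 20 of 24 counted, 14 higher and 6 lower, and a median of 0.34. At 60 or more UMIs this list had a median of 0.28 over 13 genes, against the same 0.16. Its range was wide, from Prdx6, a peroxiredoxin, at 1678 and 3169 CPM (0.92, 0.80 to 1.04), to Slc7a11, the cystine transporter, at 397 and 165 CPM (-1.27, -1.65 to -0.90). Gstm1, a glutathione transferase, was at 2483 and 3175 CPM (0.35, 0.25 to 0.46). Of the interleukin-6 and STAT3 response genes, 8 of 15 were counted, 3 higher and 5 lower, with a median of -0.33. Jak1 was at 66.8 and 64.7 CPM (-0.05, -0.78 to 0.68) and Gfap, the filament of reactive astrocytes, at 384 and 249 CPM (-0.62, -0.96 to -0.30).

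Over all kept cells, the highest, lowest and most abundant genes with at least 60 UMIs included Slc39a1 (0.56, 0.20 to 0.92) and Slc39a6 (-0.82, -1.57 to -0.10), both zinc importers. Of the copper list, Sco2 had a ratio of 0.29 (-0.38 to 0.97), Cp, ceruloplasmin, -0.30 (-0.70 to 0.10), and Prnp 0.16 (0.05 to 0.26). Of the glucocorticoid list, Errfi1 had 0.76 (0.06 to 1.48), Cdkn1a -0.60 (-1.05 to -0.16) and Glul 0.58 (0.51 to 0.64). Of the NRF2 list, Gstp1 had 1.32 (1.08 to 1.56) and Mgst1 -0.61 (-0.87 to -0.34). The lists were not recomputed without ependymal-like cells, and the part of class make-up in these values was not tested.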

How the data were processed

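Counts were deposited, as whole UMI numbers for each gene and barcode. Per the file headers they come from Cell Ranger 3.0.2, and per the submitters' processing notes the build was mm10. How barcodes were chosen is not given in the sources used here.

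The filter took barcodes with 200 or more genes and no more than 20% mitochondrial UMIs. Both libraries were clustered together with scanpy 1.11.5 (2000 variable genes without the 3 members, 30 components, 15 neighbours, Leiden resolution 1.0) and clusters were named from 17 marker lists. A name needed at least 3 markers at 2-fold or more in at least 10% of cells, and no other list with more genes among the top 10. Scrublet called 9 control and 6 MNPQ doublets, which were kept. Summed UMIs were divided by the total of the class in that library (CPM), with exact Poisson intervals. Shares had exact Clopper-Pearson intervals and ratios exact conditional binomial ones (scipy 1.17.1), at 95%. Intervals and limits (3 counts) cover counting error only. A difference past 1.5-fold was counted among genes of 60 or more UMIs per class, and classes were compared from 30 cells per library. The interval code was tested on simulated data.

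The members, lists and rules were chosen with earlier results of these data known. The rule for named genes took the members, from each list the highest, lowest and most abundant gene with at least 60 UMIs, and the 5 genes most like each member. The total depth was 2209810 (control) and 2061939 (MNPQ) UMIs. Coordinates are from GENCODE M21 and promoter letters from RefSeq. The alternatives were other filters, clusterings, scalings, weightings and depths.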

Additional observations from a re-analysis of the deposited data

Results flagged for a closer look

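Barcodes removed by the filter enter none of the comparisons, and they also held metallothionein UMIs. Mt1 was at 1878 CPM (1623 to 2162) in the 111 removed MNPQ barcodes and at 1192 CPM (1048 to 1351) in the 223 removed control barcodes. Among removed barcodes its level was thus higher in the MNPQ library. Mt2 was at 455 CPM in the MNPQ and 314 CPM in the control barcodes, and Mt3 at 939 and 835 CPM, with overlapping intervals for both. The groups of kept and removed barcodes differ in cell types, which was not resolved for the removed ones.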

How the results depend on the processing

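Depth limits Mt2 and Mt3 outside astrocyte-like and ependymal-like cells, where sums were often under 60 UMIs. No paired analysis was possible because each group has 1 library and no result comes from a test. Of 299 alternative values of the members' ratios, 240 stayed within the counting interval of the reported one and 54 left it. Another 5 changed the sign of a ratio past 1.5-fold, all in pericyte-like cells (1 of 12 for Mt1, 4 of 12 for Mt3). Sign changes of smaller ratios are counted among the 240 and 54. They came to 5 of 14 for Mt2 and 6 of 14 for Mt3 in oligodendrocyte-like cells, and 4 of 11 for Mt2 in pericyte-like cells. In astrocyte-like cells no alternative changed a sign, and the ranges were 0.40 to 0.85 for Mt1, 0.52 to 0.88 for Mt2 and 0.23 to 0.82 for Mt3. Under a filter of 500 genes and 10% mitochondrial UMIs, the ratio was 0.67 for Mt1 and 0.80 for Mt2 in astrocyte-like cells, 0.86 for Mt1 and 0.89 for Mt3 in neuron-like cells, 0.31 for Mt1 and -0.44 for Mt3 in pericyte-like cells, and 0.31 for Mt1 over all cells. With no filter the last was 0.29. Classes given per cell by marker scores gave 0.84 for Mt2 and 0.31 for Mt3 in astrocyte-like cells. Without doublets, Mt3 in endothelial-like cells was -0.73. Median-of-ratios scaling gave 0.40, 0.52 and 0.23 for Mt1, Mt2 and Mt3 in astrocyte-like cells. With each cell weighted equally, Mt2 was 0.57 in astrocyte-like cells, Mt1 and Mt2 were 0.65 and 0.57 in endothelial-like cells, the 3 members were 0.03, -1.07 and -0.63 in pericyte-like cells, and 0.36, 0.48 and 0.19 over all cells. With clusters weighted equally, Mt2 was 0.54 and Mt3 0.32 in astrocyte-like cells, and over all cells the members were 0.45, 0.48 and 0.20. Thinned to 500 UMIs, Mt1 was 0.50 in astrocyte-like cells, Mt3 -0.12 in neuron-like cells, Mt2 1.94 in microglia-like cells, Mt1 0.83 and Mt2 0.58 in endothelial-like cells, and Mt2 -1.05 and Mt3 -0.57 in oligodendrocyte-like cells. At that depth the members were -0.17, -1.05 and -0.05 in pericyte-like cells and 0.36, 0.52 and 0.18 over all cells. Thinned to 1000 UMIs, they were 0.85, 0.88 and 0.82 in astrocyte-like cells and 0.41, 0.47 and 0.18 over all cells, Mt2 was 0.61 in neuron-like and 0.30 in endothelial-like cells, and Mt2 -0.63 and Mt3 -0.48 in oligodendrocyte-like cells. Among the alternatives chosen after seeing the data, weighting the compared classes equally gave 0.56, 0.60 and 0.42 over all cells, leaving out ependymal-like cells 0.40, 0.49 and 0.23, and leaving out the cell with most metallothionein UMIs 0.17 for Mt1 and -0.66 for Mt3 in pericyte-like cells. Over all cells the sign of Mt3 thus differed under 6 of 17 alternatives. The share of astrocyte-like cells with a UMI, MNPQ minus control, was 3.40 points for Mt1 and 8.25 when thinned to 500 UMIs, and 7.29 points for Mt3, 13.9 thinned to 500 and 19.7 to 1000 UMIs; for Mt3 in neuron-like cells it was -1.48 points and 12.3 thinned to 1000. Genes past 1.5-fold in either direction, counted from 20 in place of 60 UMIs, were 25.3% against 11.1% in microglia-like, 25.0% against 13.4% in endothelial-like, 24.6% against 13% in oligodendrocyte-like and 30.9% against 16.7% in pericyte-like cells. Pericyte-like cells gave no value with no cell filter or at resolution 0.5, and none for Mt2 thinned to 1000 UMIs. Apart from the removed cells or altered weights themselves, the cause was not tested.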
